A study of Mus musculus with 12 samples.

Results

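The genes described here are those of the cornified envelope and of epidermal differentiation, chosen by name from a microarray study of the conjunctival fornix of the mouse, a fold of mucosa between lid and eyeball. The names were genes of the Sprr, Lce, Tgm, Klk and Serpinb families with Casp14, and the single genes Lor, Ivl, Flg, Flg2, Hrnr, Rptn, Krtdap, Cnfn, Evpl, Dsg1a, Cdsn, Alox12b, Aloxe3, Abca12, Sbsn and Dmkn. Probe sets of 1 gene matched 85 such genes, and a gene entered when a probe set had a deposited signal over 50 on at least 3 of the 12 arrays, with the brightest such probe set standing for the gene. This left 31 genes of the 14172 fitted. They comprise 9 of 31 envelope precursors, 3 of 6 transglutaminases, 11 of 18 clade B serpins, 3 of 22 proteases, 1 of 3 barrier lipid genes, 1 of 2 corneodesmosome genes and all 3 secreted keratinocyte proteins.

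The epithelial layer of the fornix was captured by laser, and its RNA was amplified in 2 cycles. There were 4 groups of 3 samples with 1 array each, all of mixed background: Klf4CN, labelled as a conditional knockout of Klf4, at postnatal day 14 (PN14), and wild type at PN9, PN14 and PN20. The labels used here give neither the Cre line nor the deleted part of Klf4, a zinc finger transcription factor gene, and the brighter Klf4 probe set read 10908, 8828 and 7415 in Klf4CN against 4382, 6827 and 5290 in wild type at PN14, so it does not check the label. The design text calls the samples independent and no label ties one to an animal, so the p-values reflect the spread among these samples alone, possibly a technical one, and the number of arrays limits the precision.

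Keratinocytes at the end of differentiation build the cornified envelope, a sheet of protein under the plasma membrane, from precursors such as loricrin, involucrin, envoplakin, small proline-rich (Sprr) and late cornified envelope (Lce) proteins. Transglutaminases bond these precursors to each other, lipids coat the outside, and proteases and their inhibitors govern how the dead cells are shed. The conjunctiva is a moist mucosa that normally does not cornify, and the skin of the lid, which does, lies close to it.

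Most of the envelope genes were dim in this tissue. Of the markers Lce3f, Sprr1a and Ivl, the first did not enter, since its deposited signal was over 50 on 2 arrays only, both at PN9. Sprr1a had a signal of 63.3 to 346. Ivl, involucrin, read 36.3 to 84.8 on its brightest probe set while its other probe set was never Present. Lce3b was Present on no array, and Lce1h and Lce1i on 1 PN9 array each. The label of a cornified envelope program is thus borne out only in part, and the genes are called below the epidermal differentiation genes. The threshold kept Klk11, Krtdap and Lce3a with 3 arrays over 50, and Aloxe3 and Serpinb2 with 4, and left out Klk8, Klk13 and Lce3f with 2. Krtdap passed the threshold through its PN9 arrays alone, and Serpinb2 through arrays of PN14 and PN20 alone, so the direction of their change was partly set by the rule.

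Several of these genes share a short sequence just upstream of their start. RefSeq promoters (GRCm38.p6) were found for 26 of the 31 genes, with 32 promoters among them, and the 250 bases before each start were searched on both strands for CACCC, a motif bound by Klf factors, TGACTCA, bound by AP-1 factors, and GATAAG, bound by GATA factors. TGACTCA stood in 10 of the 32 promoters (31.2%, from 8 genes), against 4.46% of all 32851 promoters. The 8 genes are Lor, Sprr1a, Sprr2f, Ivl, Krtdap, Dmkn, Serpinb7 and Serpinb8. CACCC stood in 59.4% of the members' promoters, against 52% of all promoters, and GATAAG in 0 of 32, against 6.55%. The sequences below show 4 promoters that hold TGACTCA, among them those of the markers Sprr1a and Ivl, and that of Serpinb11, which does not. Each runs 5′ to 3′ on the gene's strand and ends 1 base before the start. Capitals mark CACCC or TGACTCA on either strand, so that GGGTG and TGAGTCA are the same motifs read from the other strand, and in Sprr1a 1 copy of each overlaps.
Lor: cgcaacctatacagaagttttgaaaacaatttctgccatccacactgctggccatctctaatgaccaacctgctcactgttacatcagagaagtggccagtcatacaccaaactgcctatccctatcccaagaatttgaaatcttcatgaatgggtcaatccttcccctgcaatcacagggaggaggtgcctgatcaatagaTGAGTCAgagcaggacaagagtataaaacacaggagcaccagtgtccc
Sprr1a: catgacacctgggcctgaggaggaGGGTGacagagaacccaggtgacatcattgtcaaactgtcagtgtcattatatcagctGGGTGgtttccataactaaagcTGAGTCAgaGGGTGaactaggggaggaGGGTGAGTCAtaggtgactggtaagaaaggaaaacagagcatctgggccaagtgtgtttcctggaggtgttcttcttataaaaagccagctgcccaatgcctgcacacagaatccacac
Ivl: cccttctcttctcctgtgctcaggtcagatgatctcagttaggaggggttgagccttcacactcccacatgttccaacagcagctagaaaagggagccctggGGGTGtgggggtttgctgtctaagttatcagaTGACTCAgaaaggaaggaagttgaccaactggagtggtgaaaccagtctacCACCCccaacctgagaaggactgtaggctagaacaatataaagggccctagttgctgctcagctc
Krtdap: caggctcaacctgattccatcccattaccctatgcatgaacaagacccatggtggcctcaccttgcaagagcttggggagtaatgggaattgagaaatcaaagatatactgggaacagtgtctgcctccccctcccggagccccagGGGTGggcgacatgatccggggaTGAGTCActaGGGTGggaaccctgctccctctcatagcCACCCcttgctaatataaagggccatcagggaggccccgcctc
Serpinb11: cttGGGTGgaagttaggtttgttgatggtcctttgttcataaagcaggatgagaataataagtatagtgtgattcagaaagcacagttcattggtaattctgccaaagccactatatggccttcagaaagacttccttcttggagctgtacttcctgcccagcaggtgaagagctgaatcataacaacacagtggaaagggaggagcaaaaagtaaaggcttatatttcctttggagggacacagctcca
The Lor sequence lies at chr3:92083143-92083392 on the minus strand, Sprr1a at chr3:92485882-92486131 on the minus strand and Ivl at chr3:92573736-92573985 on the minus strand. Krtdap lies at chr7:30787655-30787904 on the plus strand and Serpinb11 at chr1:107362064-107362313 on the plus strand. TGACTCA began 48 bases before the start of Lor, 81 before that of Krtdap and 116 before those of Ivl and, for the nearer of 2 copies, Sprr1a. A match is a description of letters and shows no binding.

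With age, 6 of the 11 clade B serpins were higher and 2 of the 3 secreted keratinocyte proteins lower. At PN20, 9 of the 31 genes differed from PN9 (29%, 7 higher and 2 lower), against 24.3% of all genes fitted, so the share as a whole was near the background. The calls fell on 6 of the 11 serpins and 1 transglutaminase, all higher, and on 2 of the 3 secreted proteins, both lower, where 13.5% of all genes were called higher and 10.8% lower. These counts hold Serpinb2 and Krtdap, whose direction the threshold on signal partly set, so they are given as a description. At PN14, 5 genes differed from PN9 (16.1%, 2 higher and 3 lower), against 7.00% of all genes, with 4.34% higher and 2.66% lower. Between PN20 and PN14 limma called 0 of the 31, with 3 at an unadjusted p under 0.05 and a lowest adjusted p of 0.136, against 1.39% of all genes called (0.677% higher and 0.713% lower). Groups did not overlap for 10 of the 31 in PN20 over PN9 (43.6% of all genes), for 11 in PN14 over PN9 (29.8%) and for 10 in PN20 over PN14 (30.4%), which are shares of 32.3%, 35.5% and 32.3%. The median log2 change of the 31 was 0.1 in PN20 over PN9, where that of all genes was 0.02, and -0.12 in PN14 over PN9, where that of all genes was 0.01. In PN20 over PN14 it was 0.27, where that of all genes was 0.01, with 24 changes positive and 7 negative. Signals are array intensities scaled to a common median, changes are on the log2(signal + 16) scale with limma's standard error, a call needs an adjusted p under 0.05 over all genes, and folds of dim genes are understated. The comparisons with PN9 share its arrays. In bulk tissue, fewer cells of a type and less RNA per cell cannot be told apart. The map of all 31 genes over the 12 arrays shows these blocks.

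**Figure D1:**
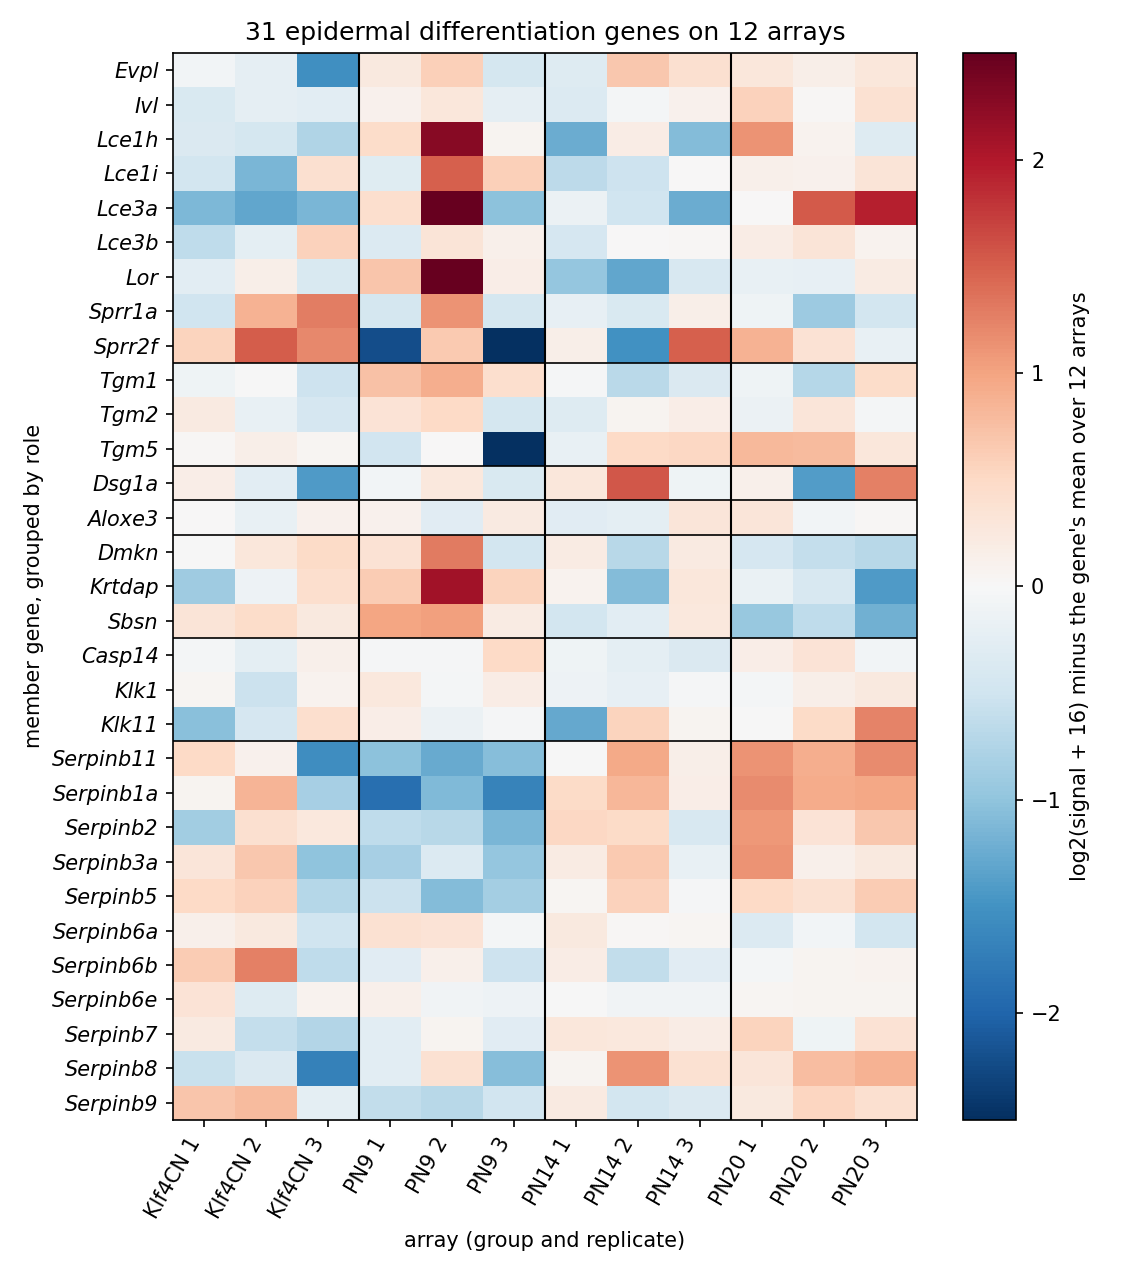
Colour gives log2(signal + 16) minus the gene's mean over the 12 arrays (columns, by group and replicate) for the 31 genes (rows, grouped by role), and colours saturate at 2.5 on either side. Serpinb11 and Serpinb1a are blue on the 3 PN9 arrays and red on the 3 PN20 arrays, Sbsn has the reverse order, and Lor, Lce1h, Lce3a and Krtdap are darkest on PN9 replicate 2.

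RNA quality moved with age too. The beta-actin control probe sets gave a 3′ over 5′ signal ratio of 34.9 ± 11.4 at PN9, 19 ± 7.14 at PN14 and 12.7 ± 3.45 at PN20 (SD, n = 3 each). With its log2 value as a covariate, 2 of the 9 calls in PN20 over PN9 were left (Serpinb1a and Sbsn) and 0 of the 5 in PN14 over PN9 (lowest adjusted p by limma 0.0508), while calls over all genes fell to 576 in PN20 over PN9, against 3443 without it. The log2 changes of the 14 called results kept their direction in that fit. Cell type markers also moved. The summed signal of 6 conjunctival epithelium markers, all measured, was 12810 to 21546 at PN9, 22230 to 33076 at PN14 and 26010 to 30153 at PN20, and that of 6 goblet cell markers 301 to 607, 1382 to 2098 and 4214 to 6410 at the same ages. Markers of tissues outside the epithelium moved too. Of the sebaceous and meibomian gland list, 5 of 6 markers were measured, with a sum of 512 to 992 at PN9, 770 to 16989 at PN14 and 1943 to 9548 at PN20. Skeletal muscle markers (6 of 6) summed to 218 to 4941, 6117 to 12487 and 1125 to 3528 at these ages, and melanocyte markers (4 of 4) to 376 to 1153, 867 to 3147 and 1206 to 3304. The part of RNA quality and of cell mixture in the changes below was not tested.

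Among the envelope precursors, loricrin was lower at PN14 than at PN9. Lor, a main protein of the epidermal envelope, read 145, 543 and 96.4 at PN9, 35.2, 24.8 and 59.4 at PN14 and 71.7, 70.9 and 98.5 at PN20. All PN9 arrays lay above all PN14 arrays, replicate 2 far above the others, while 1 PN20 array lay above the lowest PN9 array. In PN14 over PN9 its log2 change was -2 ± 0.44 (4.01-fold lower, limma adjusted p = 0.0182), and without PN9 replicate 2 it was -1.32 (adjusted p = 0.0322). Leaving out PN14 replicate 1 or PN14 replicate 2 ended the call (adjusted p up to 0.0728). A further Lor probe set changed by -2.5 in PN14 over PN9 (fit over probe sets), on signals of 0.708 to 3.53 at PN14 that were Present on no array, and the third by -0.8 (adjusted p = 0.151). In PN20 over PN9 the brightest set changed by -1.18 (adjusted p = 0.0673).

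The other 8 precursors passed no test of age. Evpl, envoplakin, which ties the envelope to desmosomes and keratin filaments, averaged 865 ± 299 at PN9, 935 ± 309 at PN14 and 891 ± 51.2 at PN20. Its 95% interval for PN20 over PN9 ran from -0.68 to 0.89 on the log2 scale. Ivl, an early scaffold of the envelope, read 57.2, 67.1 and 42.4 at PN9, 37.4, 49.5 and 57.8 at PN14 and 84.8, 53.6 and 72.9 at PN20. Its groups overlap, and its change in PN20 over PN9 was 0.27 ± 0.22 (adjusted p = 0.402). Sprr1a, which cross-bridges other precursors, read 94, 310 and 93.7 at PN9, 113, 99.4 and 150 at PN14 and 123, 63.3 and 92.7 at PN20. Its highest wild type array was PN9 replicate 2, and its change in PN20 over PN9 was -0.57 ± 0.45 (adjusted p = 0.394). Sprr2f read 35.3, 357 and 16.6 at PN9 and 418, 290 and 193 at PN20, with a change of 1.83 ± 0.79 in PN20 over PN9 (adjusted p = 0.108). Lce1h changed by -1.64 ± 0.53 in PN14 over PN9 (adjusted p = 0.072), Lce1i by -0.99 ± 0.41 and Lce3a by -1.28 ± 0.69, each with its highest array of the 12 at PN9 replicate 2. Lce3a also read 27.1, 108 and 149 at PN20, with a change of 1.78 ± 0.69 in PN20 over PN14 (limma adjusted p = 0.201). It entered through arrays of PN9 and PN20 alone, so its low place at PN14 was partly set by the signal threshold.

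That array held the highest signal of most Lce and Sprr genes. PN9 replicate 2 held the highest of the 12 signals for all 18 Sprr and Lce genes that did not enter, and for Rptn, Cnfn, Flg and Hrnr, the other precursors that did not enter. Over all candidates it was highest for 14 of 15 Lce genes and 7 of 9 Sprr genes, but for 6 of 21 Klk genes and 4 of 18 Serpinb genes. Of the 31 members it was highest for 9 (29%), among them the precursors Lor, Lce1h, Lce1i and Lce3a. The precursors Evpl, Ivl, Lce3b, Sprr1a and Sprr2f were highest on other arrays. A gene over 50 on this array alone could not enter. PN9 replicate 2 was highest for 20.3% of all genes fitted, and for 19.7% of the 6752 genes with a signal over 50 on fewer than 3 arrays. On this array 10 Lce genes had a scaled signal over 50, against 0 to 3 on each of the other 11 arrays, and 6 Sprr genes did, against 1 to 2. Lce3f had a signal of 435 there, against 70.4 on PN9 replicate 1 and 34.3 at most outside PN9. Rptn, repetin, had 225 there on its brightest probe set against 22.7 at most outside PN9, and Sprr2d 167 against 33.2. The other Rptn probe sets did not peak there, with 18.2 and 19 against 30.7 and 33.6 on Klf4CN replicate 3. The plot of both families shows this array as a single peak.

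**Figure D2:**
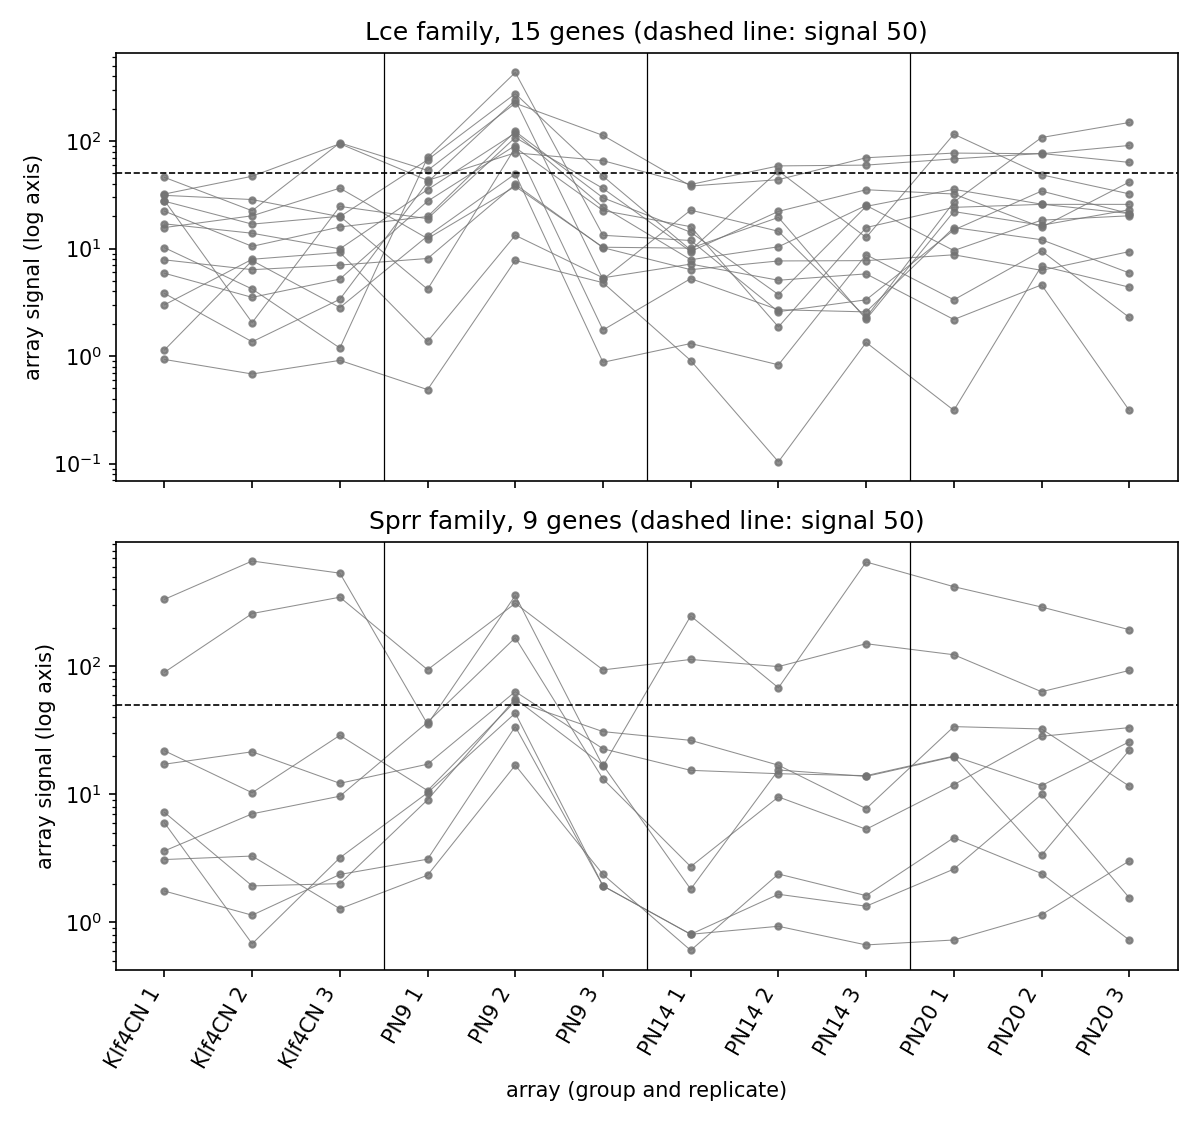
Scaled array signal (log axis) of each candidate gene of the Lce family (top, 15 genes) and the Sprr family (bottom, 9 genes) on the 12 arrays, 1 line per gene, with a dashed line at 50. Of the 15 Lce genes, 10 lie over the line on PN9 replicate 2 and 0 to 3 on each other array.

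Several epidermal markers were high on the same array. Krt10, a keratin of suprabasal epidermis, had a signal of 1961 on PN9 replicate 2 and of 99 to 353 on the other 11 arrays. Dsc1, desmocollin of the upper epidermis, had 181 there and 43.3 at most elsewhere. Crct1, taken from a wider list of genes of suprabasal keratinocytes, had 213 there and 50.1 at most elsewhere. On that wider list Tchh went the other way, with 13 there against 479 and 176 on the other PN9 arrays. The summed signal of 5 measured hair follicle markers was 118 there, against 346 and 413 on the other PN9 arrays. Krt1 had 113 there against 86.5 on PN9 replicate 1, and Krt77 was Present on no array. The summed signal of 5 measured lid epidermis markers was 8512 to 16970 at PN9, with PN9 replicate 2 highest, 8455 to 12781 at PN14 and 10302 to 12896 at PN20, but Krt15, which is also a basal keratin of other stratified epithelia, made up most of it, with 14712 on PN9 replicate 2. Without Krt15 the sum was 2259 on PN9 replicate 2, against 499 and 194 on the other PN9 arrays, 188 to 231 at PN14 and 269 to 294 at PN20. Their part in the results was not tested. Without this array 9 genes were called in PN20 over PN9, of which 7 were among the 9 called with it. Krtdap and Serpinb9 were lost, and Serpinb8 and Sprr2f were called in their place. In PN14 over PN9 3 were called without it, of which 2 (Serpinb1a and Lor) were among the 5, with Sprr2f the third.

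Of the 3 transglutaminases, which bond envelope proteins to each other, 1 was lower after PN9 and 1 higher. Tgm1, the membrane-bound enzyme of keratinocytes, read 109, 125 and 83.7 at PN9, 57.1, 31.1 and 42 at PN14 and 53.1, 29.5 and 87 at PN20. The PN14 arrays lay below the PN9 arrays (log2 change -1.05 ± 0.29, 2.06-fold lower, limma adjusted p = 0.0438), and 1 PN20 array reached the range of PN9 (change in PN20 over PN9 -0.81 ± 0.29, adjusted p = 0.0534). Leaving out 1 array ended the PN14 call in 7 of 12 cases, with adjusted p up to 0.146. Tgm5, an epidermal enzyme, read 69.1, 102 and 4.73 at PN9, 88.3, 151 and 152 at PN14 and 191, 188 and 128 at PN20. Every PN20 array lay above every PN9 array, with a log2 change of 1.62 ± 0.46 (adjusted p = 0.0217). No PN9 array had a Present call, so the mean signals of 169 ± 35.5 at PN20 and 58.5 ± 49.3 at PN9 are given in place of a fold. This call was lost without PN20 replicate 1 or PN20 replicate 2 (highest adjusted p 0.0714). Tgm2, tissue transglutaminase, which is expressed in many cell types, averaged 8480 ± 2652 at PN9, 7398 ± 1276 at PN14 and 7710 ± 1323 at PN20, with a 95% interval from -0.63 to 0.44 for PN20 over PN9.

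The 3 secreted keratinocyte proteins lie side by side on chromosome 7, with no other coding gene between them in RefSeq, and their change was negative in each pair of ages. Sbsn, suprabasin, read 738, 761 and 427 at PN9, 264, 301 and 441 at PN14 and 183, 231 and 151 at PN20. The PN20 arrays lay below all other wild type arrays, and 1 PN14 array reached the range of PN9. Sbsn fell by 1.66 ± 0.25 in PN20 over PN9 (log2, 3.16-fold lower, limma adjusted p = 0.000562) and by 0.89 ± 0.25 in PN14 over PN9 (adjusted p = 0.0489). The PN20 call held in all 31 alternative settings, whereas the PN14 call was lost without any 1 of 8 arrays (adjusted p up to 0.168). Krtdap, keratinocyte differentiation-associated protein, read 53.5, 176 and 50 at PN9, 31.8, 5.29 and 39 at PN14 and 24.4, 18 and 0.938 at PN20. All PN9 arrays lay above all later wild type arrays. Krtdap fell by 1.75 ± 0.49 in PN20 over PN9 (3.36-fold lower, adjusted p = 0.0196). It entered through its PN9 arrays alone, so this direction and the lack of overlap were partly set by the signal threshold. Without PN9 replicate 2 the change was -1.25 (adjusted p = 0.097), and without PN20 replicate 3 it was -1.37 (adjusted p = 0.0896). Dmkn, dermokine, read 120, 243 and 61.2 at PN9, 106, 49.2 and 108 at PN14 and 63.4, 53.4 and 48.9 at PN20, with groups that overlap (change in PN20 over PN9 -0.98 ± 0.36, adjusted p = 0.0644). The plot of these genes with loricrin and the transglutaminases shows every array.

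**Figure D3:**
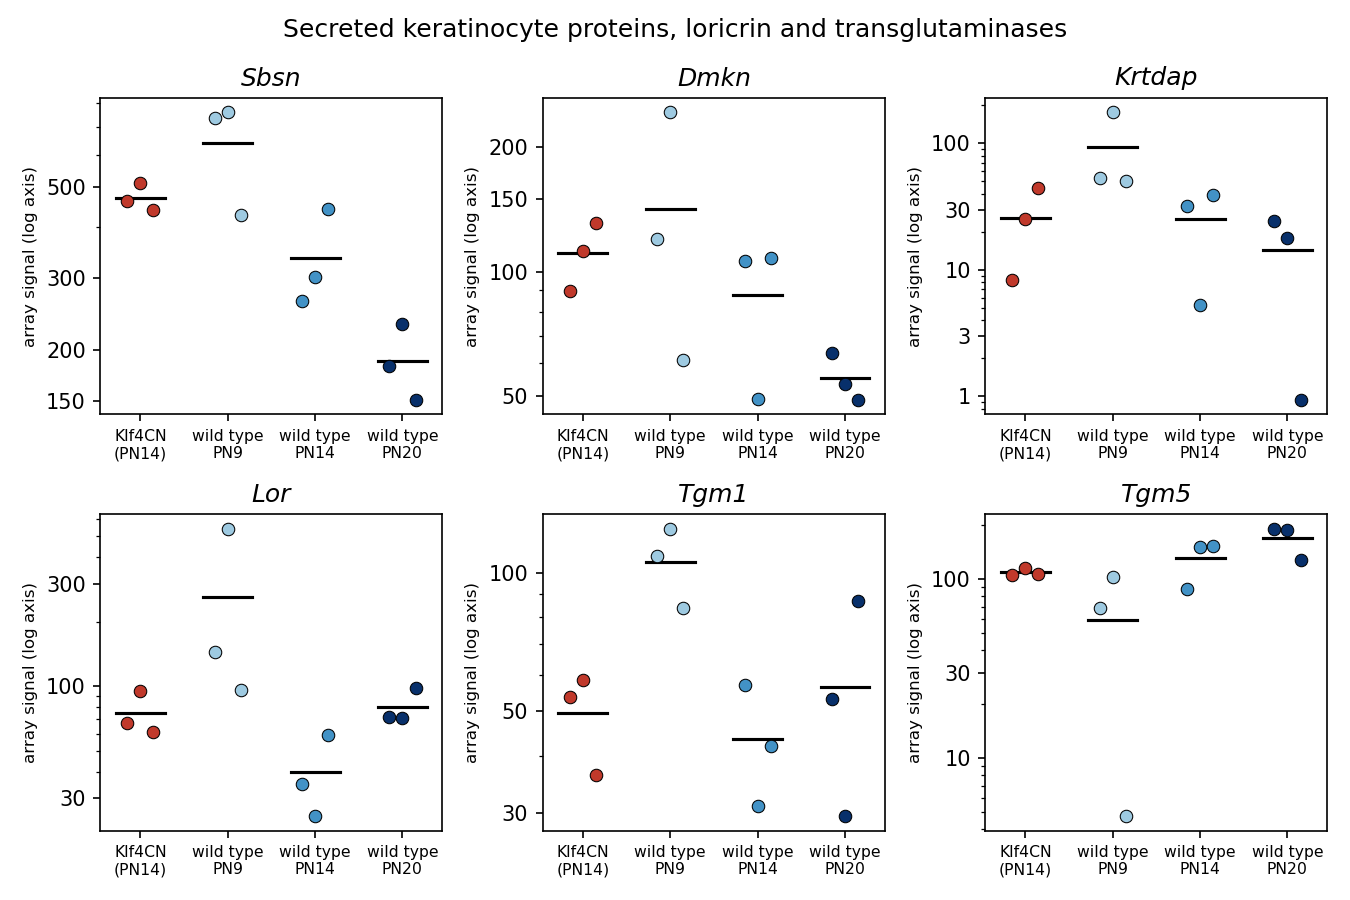
Array signal (log axes that differ between panels) of the secreted proteins Sbsn, Dmkn and Krtdap, of Lor and of Tgm1 and Tgm5 on each array (points), with group means (bars), in Klf4CN at PN14 and in wild type at PN9, PN14 and PN20. The PN20 points of Sbsn lie at 151 to 231, below the 427 to 761 of PN9, while those of Tgm5 lie at 128 to 191, above the 4.73 to 102 of PN9.

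Clade B serpins, intracellular inhibitors of serine and cysteine proteases, made up most of the calls. Serpinb1a, an inhibitor of neutrophil elastase, read 183, 324 and 213 at PN9, 1008, 1294 and 806 at PN14 and 1651, 1371 and 1413 at PN20. No array of 1 age reached into the range of another. Serpinb1a rose by 2.58 ± 0.34 in PN20 over PN9 (log2, 5.97-fold, limma adjusted p = 0.000244) and by 2.05 ± 0.34 in PN14 over PN9 (4.15-fold, adjusted p = 0.0053). The PN20 call held in all 31 alternative settings, and the PN14 call in every setting but the actin covariate. A dimmer Serpinb1a probe set rose by less, 1.41 ± 0.25 in PN20 over PN9 (2.66-fold, limma adjusted p = 0.00179 over probe sets). Serpinb11 read 862, 729 and 844 at PN9, 1767, 3425 and 1960 at PN14 and 3870, 3325 and 4052 at PN20. Its PN9 arrays were the lowest of the wild type arrays. It rose by 2.18 ± 0.40 in PN20 over PN9 (4.54-fold, adjusted p = 0.00181) and by 1.48 ± 0.40 in PN14 over PN9 (2.78-fold, adjusted p = 0.0414). The PN14 call was lost without any 1 of the 9 wild type arrays (adjusted p up to 0.149).

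Another 4 serpins were higher at PN20 than at PN9. Serpinb5, maspin, a serpin of epithelia that does not inhibit proteases in the usual way, read 1215, 823 and 970 at PN9, 1831, 2650 and 1738 at PN14 and 2509, 2301 and 2753 at PN20. Its PN9 arrays lay below all later wild type arrays, with a change of 1.33 ± 0.30 in PN20 over PN9 (2.51-fold, limma adjusted p = 0.00594). Serpinb2, plasminogen activator inhibitor of the intracellular type, was dim, at 16.9, 15.6 and 7.19 at PN9, 57.3, 55.2 and 23.1 at PN14 and 93.2, 49.2 and 66.4 at PN20. Its PN20 arrays lay above its PN9 arrays, with a change of 1.54 ± 0.35 (2.9-fold, adjusted p = 0.00647). Serpinb2 entered through arrays of PN14 and PN20 alone, so this direction was partly set by the signal threshold. Serpinb3a, a mouse relative of the human squamous cell carcinoma antigens, read 134, 194 and 121 at PN9, 293, 406 and 220 at PN14 and 564, 277 and 301 at PN20. Its PN9 arrays were lowest, with a change of 1.21 ± 0.39 in PN20 over PN9 (2.32-fold, adjusted p = 0.0356). That call was lost without PN9 replicate 1, PN9 replicate 3, PN20 replicate 1 or PN20 replicate 3 (adjusted p up to 0.154). Serpinb9, an inhibitor of granzyme B, read 163, 154 and 181 at PN9, 304, 183 and 198 at PN14 and 308, 385 and 348 at PN20. On this probe set each age lay above the one before. Its change was 0.99 ± 0.26 in PN20 over PN9 (1.99-fold, adjusted p = 0.0152), lost without PN9 replicate 2 or PN20 replicate 2 (adjusted p up to 0.0574). The dimmer Serpinb9 probe set changed by 0.62 ± 0.29 in PN20 over PN9 (limma adjusted p = 0.166 over probe sets). In PN20 over PN14 that dimmer set changed by 0.06.

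**Figure D4:**
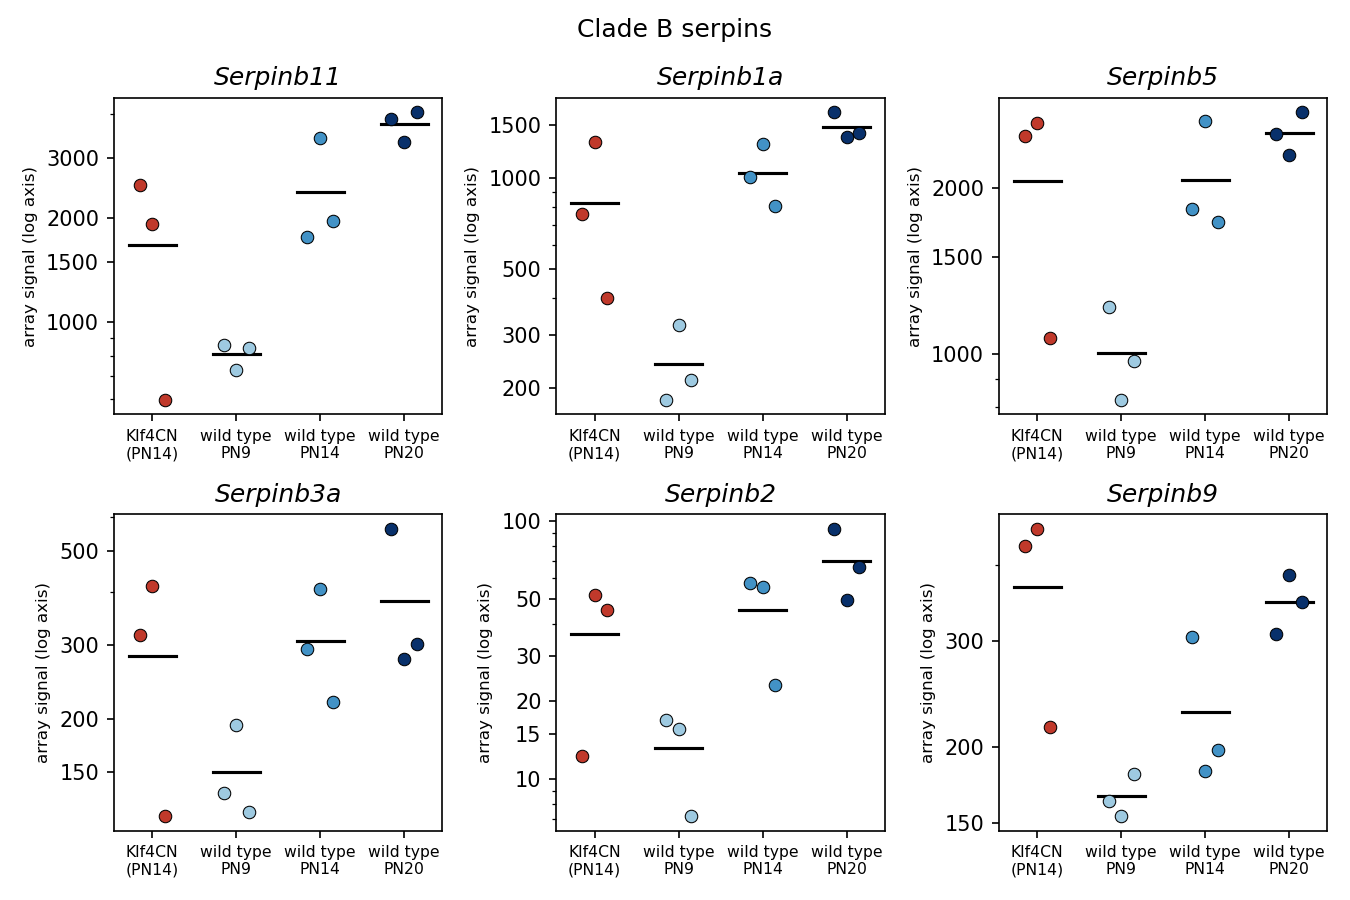
Array signal (log axes that differ between panels) of 6 clade B serpins on each array (points), with group means (bars), in Klf4CN at PN14 and in wild type at PN9, PN14 and PN20. In each panel the PN20 points lie above the PN9 points, for Serpinb11 at 3325 to 4052 against 729 to 862. For Serpinb2 that order was partly set by the signal threshold.

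The other 5 serpins passed no test of age. Serpinb8, an inhibitor of furin in humans, averaged 269 ± 55.9 at PN20 and 140 ± 73.1 at PN9 (change 0.97 ± 0.40, limma adjusted p = 0.0911). Its dimmer probe set changed by 1.18 ± 0.29 (adjusted p = 0.0128 in a fit over 30618 probe sets, chosen after seeing the data). Serpinb6a averaged 1210 ± 174 at PN20 and 1735 ± 275 at PN9 (change -0.51 ± 0.21, adjusted p = 0.0986), the only serpin with a negative change between these ages. Serpinb6b, Serpinb6e and Serpinb7 changed by 0.26, 0.09 and 0.43. Group means were in the order PN9, PN14, PN20 from low to high for 8 of the 11 serpins. By position, 6 serpins lie within 12 neighbouring coding genes on chromosome 1 (Serpinb5, Serpinb3a, Serpinb11, Serpinb7, Serpinb2 and Serpinb8), with 4 higher at PN20 and log2 changes of 0.43 to 2.18. The 5 on chromosome 13 (Serpinb1a, Serpinb6b, Serpinb9, Serpinb6e and Serpinb6a) lie within 16 coding genes, with 2 higher and changes of -0.51 to 2.58. The 8 precursors of chromosome 3, from Lor to Lce3b, lie within 37 coding genes, and 0 were called in PN20 over PN9. Of all genes fitted, 24.3% were called between these ages, 13.5% higher and 10.8% lower. The 4 on chromosome 1 include Serpinb2, whose direction the signal threshold partly set. Such small counts are given as a description of position.

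The remaining genes passed no test of age. Casp14, a caspase that processes filaggrin in the epidermis, averaged 94.5 ± 15.7 at PN20 and 94.7 ± 24.1 at PN9, with a 95% interval of -0.43 to 0.45, and its other probe set was never Present. The kallikreins are secreted serine proteases. Klk1, tissue kallikrein, averaged 136 ± 14.5 at PN20 and 139 ± 17.9 at PN9, with 3 other probe sets at group means of 32 or less. Klk11 averaged 57.5 ± 32.7 at PN20 and 30.5 ± 5.29 at PN9 and was not Present at PN9. Aloxe3, a lipoxygenase that makes barrier lipids, averaged 45.4 ± 8.46 at PN20 and 42.6 ± 10.3 at PN9. Dsg1a, desmoglein of the desmosomes that hold the outer epidermis together, averaged 206 ± 176 at PN20 and 152 ± 37 at PN9, and a 95% interval of -1.18 to 1.31 leaves its change poorly bounded.

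In Klf4CN, limma called 0 of the 31 genes, with 4 at an unadjusted p under 0.05 and a lowest adjusted p of 0.282, and it called 0.183% of all genes (0.0776% higher and 0.106% lower). This comparison asks which genes of the fornix depend on Klf4, which in skin is needed for the barrier. The median log2 change of the 31 was -0.02, where that of all genes was 0, and the groups did not overlap for 2 of the 31 (13.1% of all genes). Klf4CN replicate 3 stood apart from its replicates (mean Pearson r with them 0.926 over the 14172 genes fitted, lowest of the 12 arrays). Its summed skeletal muscle marker signal was 24724, against 5541 and 7436 on the other 2 Klf4CN arrays and 6117 to 12487 in wild type at PN14. Without that array the count was again 0. With array weights, which gave it 0.225, the lowest weight of the 12, and 4.83 to Klf4CN replicate 1, 3 genes were called. Array weights also raised the calls over all genes in PN14 over PN9. The 3 calls are thus given as a description, with no share of all genes beside them. Cell type markers differed too. All Klf4CN arrays lay below all wild type PN14 arrays in summed conjunctival epithelium markers (10173 to 19989 against 22230 to 33076). The same held for goblet cell markers (304 to 411 against 1382 to 2098). Myeloid, neutrophil and endothelium sums lay above, for myeloid at 5348 to 5668 against 3700 to 4506. The actin ratio was 12.7 ± 6.44 in Klf4CN against 19 ± 7.14, with overlapping ranges. Their part was not tested.

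Serpinb8 had the change of smallest p. It read 106, 124 and 39.6 in Klf4CN and 173, 374 and 217 in wild type at PN14. All Klf4CN arrays lay below all wild type arrays, replicate 3 lowest, with a log2 change of -1.39 ± 0.40 (2.62-fold, unadjusted p = 0.00344, limma adjusted p = 0.282). Its dimmer probe set changed by -0.31 ± 0.29. In the authors' deposited table Serpinb8 was the 1 gene of the 31 that passed their rule in this comparison, with a sum of -9 over 9 pairs of arrays. Of all probe sets, 223 of 45037 passed that rule. With array weights its change was -1.12 (adjusted p = 0.0396), and Serpinb9 (0.86, adjusted p = 0.0229) and Serpinb6b (0.89, adjusted p = 0.0475) were called as well.

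The Klf4CN mean lay below the wild type mean at PN14 for 8 of the 11, and for 5 of the 6 that rose with age, but none of these differences passed. The counts rest on Klf4CN replicate 3: without it they were 5 of the 11 and 3 of the 6. Serpinb11 read 2503, 1925 and 597 in Klf4CN and 1767, 3425 and 1960 in wild type at PN14 (change -0.67 ± 0.40, limma adjusted p = 0.676). Serpinb1a read 757, 1312 and 398 in Klf4CN and 1008, 1294 and 806 in wild type at PN14 (change -0.46 ± 0.34, adjusted p = 0.757). In both genes Klf4CN replicate 3 was the lowest array and the others overlapped with wild type. Serpinb9 read 430, 459 and 216 in Klf4CN and 304, 183 and 198 in wild type at PN14 (change 0.61 ± 0.26, adjusted p = 0.539). Serpinb7 averaged 40.4 ± 21.8 in Klf4CN and 66.5 ± 2.8 in wild type at PN14 (change -0.61 ± 0.26, adjusted p = 0.539).

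Among precursors, Evpl was lower and Lor and the Sprr genes higher in mean in Klf4CN, with none past the threshold. Evpl read 715, 643 and 250 in Klf4CN and 599, 1209 and 996 in wild type at PN14 (change -0.86 ± 0.37, limma adjusted p = 0.539). Lor read 67.4, 95.4 and 61.2 in Klf4CN and 35.2, 24.8 and 59.4 in wild type at PN14. The Lor groups did not overlap on this probe set, with a change of 0.73 ± 0.44 (adjusted p = 0.68). On the other Lor probe sets they overlapped, with changes of 0.03 and 0.42 in the fit over probe sets. Sprr1a read 89.8, 258 and 346 in Klf4CN and 113, 99.4 and 150 in wild type at PN14 (change 0.70 ± 0.45, adjusted p = 0.714), and Sprr2f read 333, 663 and 533 in Klf4CN and 247, 67.9 and 652 in wild type at PN14 (change 1.05 ± 0.79, adjusted p = 0.758). Their groups overlap, and the 95% interval of Sprr2f ran from -0.64 to 2.73. Ivl read 36.3, 41.9 and 40.9 in Klf4CN and 37.4, 49.5 and 57.8 in wild type at PN14 (change -0.19 ± 0.22, adjusted p = 0.854).

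Probe sets shared by several Sprr2 genes showed the wider differences. They stand for no single gene and are no members, and they were looked at after the data were seen. A set shared by Sprr2a1, Sprr2a2 and Sprr2a3 read 350, 1176 and 808 in Klf4CN and 140, 240 and 209 in wild type at PN14 (change 1.78 ± 0.43, limma adjusted p = 0.225 over 30618 probe sets). A set shared by Sprr2a1 and Sprr2a2 read 165, 629 and 291 in Klf4CN and 16.3, 71.1 and 56.9 in wild type at PN14 (change 2.48 ± 0.51, adjusted p = 0.112) and was Present on the 3 Klf4CN arrays and on no wild type array. In both sets all Klf4CN arrays lay above all wild type arrays of the same age. In the authors' deposited table both passed the authors' rule with a sum of 9, where 223 of 45037 probe sets passed it. The third such set, of Sprr2a1 and Sprr2a2, averaged 33.8 ± 30.3 in Klf4CN and 15.9 ± 8.16 in wild type at PN14 and did not pass there.

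The secreted proteins, transglutaminases and remaining genes also gave no call in Klf4CN. Sbsn read 463, 511 and 439 in Klf4CN and 264, 301 and 441 in wild type at PN14 (change 0.50 ± 0.25, limma adjusted p = 0.62), with 1 wild type array inside the Klf4CN range. Krtdap averaged 26 ± 18 in Klf4CN and 25.4 ± 17.8 in wild type at PN14, and Dmkn 111 ± 21 in Klf4CN and 87.7 ± 33.4 in wild type at PN14. Tgm1, Tgm2 and Tgm5 changed by 0.15, -0.10 and -0.20. Dsg1a read 177, 127 and 48.7 in Klf4CN and 194, 492 and 143 in wild type at PN14, with overlapping groups (change -1.09 ± 0.58, adjusted p = 0.634). Casp14, Klk1, Klk11 and Aloxe3 changed by between -0.13 and 0.18. The plot of intervals gives all 31 genes.

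**Figure D5:**
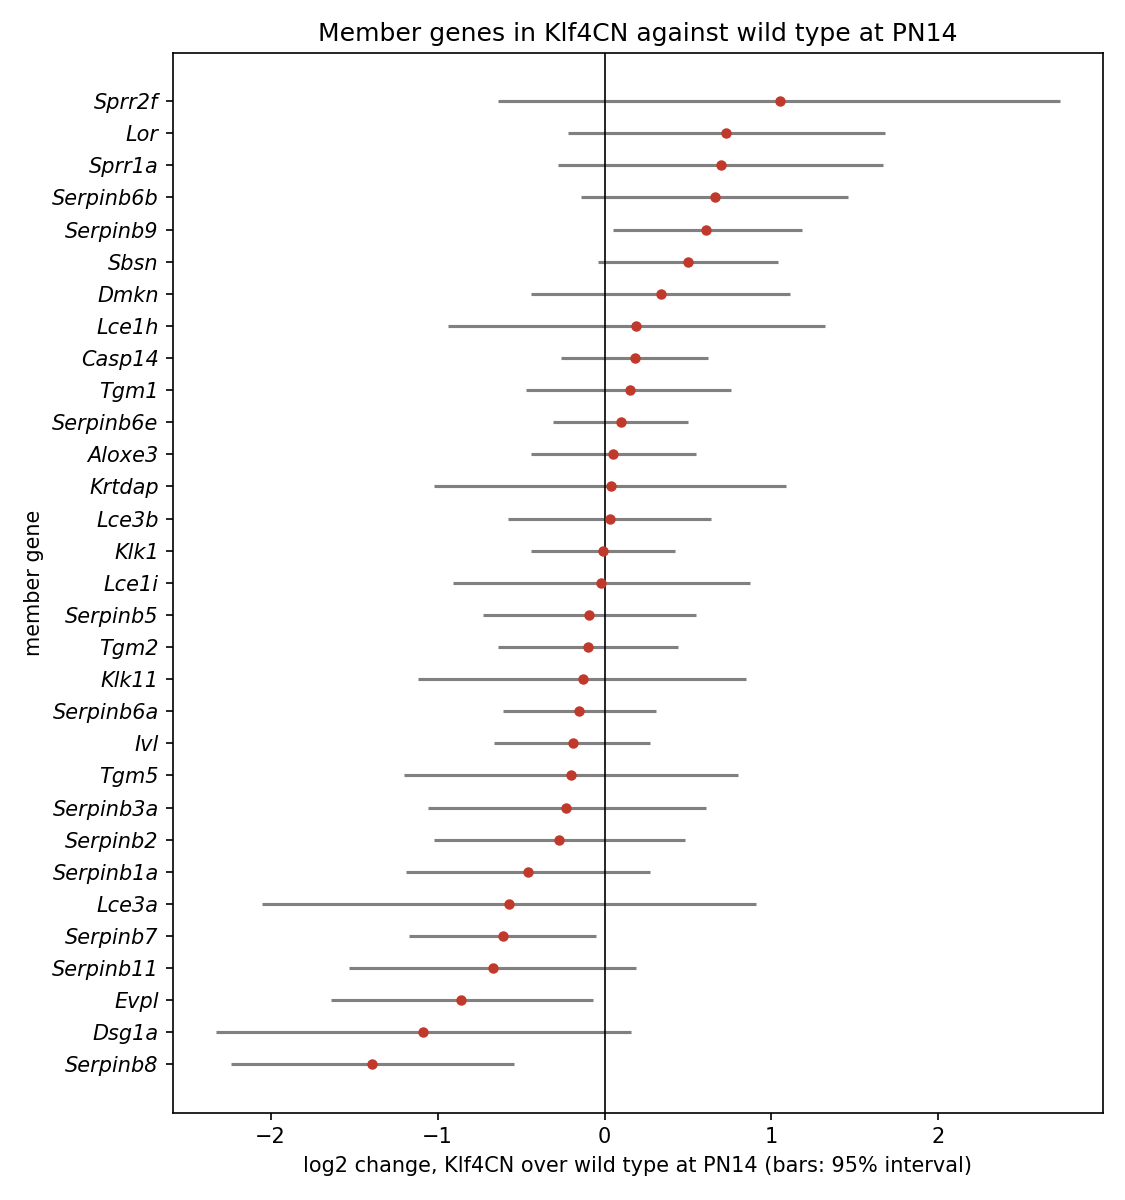
Log2 change in Klf4CN over wild type at PN14 (x axis) for each of the 31 genes (y axis), as limma's estimate (point) with its unadjusted 95% interval (bar). Serpinb8 lies lowest at -1.39 with an interval of -2.24 to -0.54, and Sprr2f highest at 1.05 with an interval of -0.64 to 2.73.

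Other genes of the same pathways, which are no members, were called higher with age more often than lower. Of 62 measured of 73 listed genes, 26 were called higher and 1 lower at PN20 than at PN9, where 13.5% and 10.8% of all genes were (median log2 change 0.77, where that of all genes was 0.02). By group, 8 of 24 envelope, keratin and junction genes were higher, as were 5 of 15 lipid enzymes, 4 of 9 proteases and inhibitors and 9 of 14 transcription factors. Ppl, periplakin, the partner of envoplakin, changed by 1.37 ± 0.30 in PN20 over PN9 (limma adjusted p = 0.00548), where Evpl changed by 0.10 ± 0.37. Asprv1, a protease that processes filaggrin, rose by 2.21 ± 0.33 (adjusted p = 0.000501), and Lipm, an epidermal lipase, by 2.23 ± 0.22 (adjusted p = 4.73e-05). Among the factors, Klf4 rose by 1.24, Grhl3, a regulator of barrier formation, by 1.63, and Prdm1, which acts late in keratinocyte differentiation, by 2.36. Smpd1, acid sphingomyelinase, fell by 0.72 (adjusted p = 0.0375). At PN14, 12 of the 62 were higher than at PN9 and 0 lower, where 4.34% and 2.66% of all genes were. In Klf4CN 2 of the 62 were lower and 0 higher, the keratins Krt78, at 46.3 in Klf4CN against 435 in wild type at PN14 in mean signal (change -2.76 ± 0.31, adjusted p = 0.00201), and Krt80, at 164 in Klf4CN against 615 in wild type at PN14 (change -1.76 ± 0.28, adjusted p = 0.0286).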

How the data were processed

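The deposited signal intensities, on a linear scale, were made by the authors with GCOS 1.4, per the deposited description of the tables, each array scaled to a 2% trimmed mean of 150. A deposited score of the authors sums increases and decreases over 9 pairs of arrays for each comparison, and further deposited columns give Present counts. Of 45101 probe sets, 64 controls were left out, and 30618 were kept as above the 40th percentile of their own array on at least 3 arrays. Arrays were scaled to a common median of kept probe sets (factors 0.8763 to 1.137), and values taken as log2(signal + 16). The platform annotation gave 1 symbol to 34958 probe sets, several to 932 and none to 9211, and the latter 2 kinds entered no gene count. Symbols of 34754 matched RefSeq. The brightest kept probe set stood for each of 14172 genes.

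Tests used limma 3.58.1 under R 4.3.3 with 1 mean per group over the 12 arrays. Its moderated variance followed a trend on intensity (residual degrees of freedom 8, prior 6.02), p-values were adjusted by Benjamini-Hochberg, and the fit was tested on simulated data. The members and gene lists were chosen with earlier results of these data known. Genes called in Klf4CN or in PN20 against PN9, and the markers, were to be named with every array. The shared Sprr2 probe sets and other genes given with every array were chosen after their values were seen. The arrays give signals and no read depth, and 2305 of the kept probe sets never had a Present call. Alternatives changed the offset, scaling, filter, probe set, variance model, weights, replicate block, actin covariate, samples and threshold.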

Additional observations from a re-analysis of the deposited data

How the results depend on the processing

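Over 31 alternative settings, 0 of the 14 called gene results changed direction, and 2 kept their call in all 31 (Sbsn and Serpinb1a, PN20 against PN9), with 6 keeping it whichever array was left out. For PN14 against PN9, where 5 genes were called, 3 were called with an offset of 1, with the mean of a gene's probe sets, without a variance trend and with each kept probe set fitted on its own (added after seeing the data), 2 with the median of all probe sets and without a filter, and 0 with the actin covariate. At adjusted p under 0.01 and under 0.1 that count was 1 and 8. For PN20 against PN9, where 9 were called, 15 were called with array weights, 2 with the actin covariate, 5 at adjusted p under 0.01 and 14 under 0.1. For Klf4CN against wild type, where 0 were called, array weights gave 3. For PN20 against PN14, where 0 were called, array weights gave 1 and fitting only the 2 groups gave 1. Leaving out each array in turn gave counts of 0 in Klf4CN against wild type and in PN20 against PN14, 1 to 7 in PN14 against PN9 and 7 to 12 in PN20 against PN9. The lowest of these for PN14 against PN9 came without PN14 replicate 1 or without PN14 replicate 2. All-gene calls for PN14 against PN9 were 992, but 131 with the actin covariate and 2965 with array weights. The cause of these moves was not tested, except that fewer arrays leave fewer degrees of freedom.

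Replicate numbers gave no clear sign of pairing: deviations of same-numbered arrays correlated by -0.23 to 0.27, over 0.1 in 6 of 18 pairs. Without the values for arrays of different number, these do not settle whether samples were paired. With the replicate block the counts were 0 in Klf4CN against wild type, 4 in PN14 against PN9, 0 in PN20 against PN14 and 10 in PN20 against PN9. With signals near background, as for the Lce genes, Krtdap and Serpinb2, folds depend on the offset.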
